A study of Mus musculus with 9 samples.

Results

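The genes of 2 signals that keep microglia alive and in their resting state were followed in mouse medullary brainstem: Csf1r with its ligands Csf1 and Il34, and the transforming growth factor beta (TGF-beta) genes Tgfb1, Tgfb2, Tgfb3, Tgfbr1 and Tgfbr2. They were chosen by name, and all 8 were found among the 17187 genes of the deposited table. Of the 8 genes, 5 encode ligands and 3 encode receptors. Poly(A) RNA came from tissue punches that held the raphe nuclei, the serotonergic cell groups of the medulla. The hIL-6 mice were wild type and had received adeno-associated virus AAV2-HIL6 in the cortex 3 weeks before. The labels write this virus as AAV2-HIL6-GFP in the treatment field and without GFP in the protocol, so whether it also carries GFP is not settled. It makes hyper-interleukin-6 (hIL-6), a fusion of interleukin-6 with its soluble receptor that acts through gp130 and STAT3. The controls were wild-type mice given AAV2-GFP, which makes green fluorescent protein. There were 5 hIL-6 libraries (3 in batch 1 and 2 in batch 2) and 4 GFP libraries (3 in batch 1 and 1 in batch 2). Age, sex and whether each library is a separate mouse are not given in the labels; a p-value here therefore weighs a difference only against library-to-library spread. The virus was placed in the cortex and the tissue is brainstem, so the libraries show RNA far from the injection. The labels do not say which brainstem cells the cytokine reached.

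Microglia depend on the receptor tyrosine kinase CSF1R throughout life, and they die when it is blocked. Its ligands share little sequence: CSF1 is made by glia and prevails in white matter and hindbrain, while IL-34 is made mainly by neurons and prevails in the forebrain. TGF-beta is secreted in a latent form, is released by integrins, and signals through a complex of TGFBR2 and TGFBR1 to the transcription factors SMAD2 and SMAD3. In mice, microglia without this signal lose the genes that set them apart from other macrophages.

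Levels are in FPKM, which count sequenced fragments relative to transcript length and library size. Being per length, they were compared between genes, but errors in assigning reads to a gene remain in such comparisons. Sums over all genes were 567971 to 635729 FPKM per library. Depth, read from the spacing of low values, was 31.6 to 46.7 in units of 1e6 scaled fragments. Tgfb3, which has 1 annotated transcript, then rested on 619 to 1089 fragments per library, a counting error of 3.03% to 4.02%. Libraries also differed in tissue content. The 7 leptomeningeal markers summed to 72.9 FPKM in hIL-6 library 3 and to 73.3 FPKM in GFP library 3, against 22.5 to 41.2 FPKM in the other hIL-6 libraries and 24.2 to 35.4 FPKM in the other GFP libraries. GFP library 1 stood apart in monocyte and neutrophil markers (46.8 FPKM over the 6 of 7 listed genes that were found, against 0.961 to 4.15 FPKM elsewhere). It also stood apart in red blood cell markers (609 FPKM over 5 genes, against 83.4 to 214 FPKM elsewhere). All 18 microglia markers were above 0 in all 9 libraries, and they summed to 332 to 426 FPKM in hIL-6 libraries and 271 to 322 FPKM in GFP libraries. In bulk tissue, more cells of a type and more RNA per cell cannot be told apart.

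Promoter sequence shows how the ligand genes differ in their DNA. A promoter sequence at a RefSeq start (GRCm38.p6) was at hand for 5 of the 8 genes. Of these, 3 ligand promoters are printed. They are Csf1, the ligand with the largest difference between groups, Tgfb1, the ligand that differed between batches, and Tgfb2, the lowest of the set. Each is the 250 bases before the annotated start, 5′ to 3′ on the gene's strand. Capitals mark matches on either strand to GGGCGG (the GC box) or TATAAA (the TATA box).
Csf1 promoter, chr3:107760470-107760719, minus strand: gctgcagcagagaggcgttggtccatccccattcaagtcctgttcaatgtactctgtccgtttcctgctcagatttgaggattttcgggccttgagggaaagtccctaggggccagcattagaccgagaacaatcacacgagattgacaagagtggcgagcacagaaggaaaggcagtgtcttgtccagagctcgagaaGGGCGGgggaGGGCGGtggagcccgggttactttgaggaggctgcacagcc
Tgfb1 promoter, chr7:25686752-25687001, plus strand: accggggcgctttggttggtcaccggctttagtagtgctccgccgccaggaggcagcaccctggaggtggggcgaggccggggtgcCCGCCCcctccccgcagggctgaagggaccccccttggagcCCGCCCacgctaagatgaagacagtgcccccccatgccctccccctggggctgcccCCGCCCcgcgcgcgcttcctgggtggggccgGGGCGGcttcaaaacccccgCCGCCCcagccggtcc
Tgfb2 promoter, chr1:186705990-186706239, minus strand: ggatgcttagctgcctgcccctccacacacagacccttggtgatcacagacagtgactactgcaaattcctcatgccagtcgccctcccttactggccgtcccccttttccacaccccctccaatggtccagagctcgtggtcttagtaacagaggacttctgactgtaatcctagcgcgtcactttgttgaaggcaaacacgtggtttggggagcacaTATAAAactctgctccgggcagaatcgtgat
The Tgfb1 stretch held 5 GC boxes and no TATA box and was 75.2% G and C. The Tgfb2 stretch held a TATA box, no GC box, and was 53.6% G and C. Csf1 had 2 GC boxes and 56.4% G and C. Of 32851 mouse promoters of this length, 32.7% held a GC box and 12.4% a TATA box. The letters TTCNNNGAA, the site of STAT factors, were in none of the 3 stretches and in 7.02% of all promoters. A match or its absence in this window says nothing on whether a factor binds there.

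Csf1r was the highest of the 8 genes, and the levels fell into an order that was partly the same in every library. Csf1r averaged 17.9 FPKM over all 9 libraries, above 73.2% of the genes in the table, and exceeded Csf1 (mean 12.2 FPKM) in 9 of 9. Csf1 exceeded Il34 (mean 9.43 FPKM) in 7 of 9 libraries, 5 of 5 hIL-6 and 2 of 4 GFP libraries, so the order of this pair held in the hIL-6 group and not in the GFP group. Il34 exceeded Tgfb3 (mean 6.78 FPKM) in 9 of 9. Tgfb3, Tgfbr1 (6.50 FPKM) and Tgfbr2 (5.75 FPKM) overlapped, with Tgfb3 above Tgfbr1 in 5 of 9 libraries and Tgfbr1 above Tgfbr2 in 6 of 9. Tgfbr2 exceeded Tgfb1 (3.44 FPKM), and Tgfb1 exceeded Tgfb2 (2.23 FPKM), in 9 of 9 each. The lowest value of any of the genes was 1.73 FPKM, so all 8 passed the filter at a mean of 0.5 FPKM with room to spare.

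**Figure D1:**
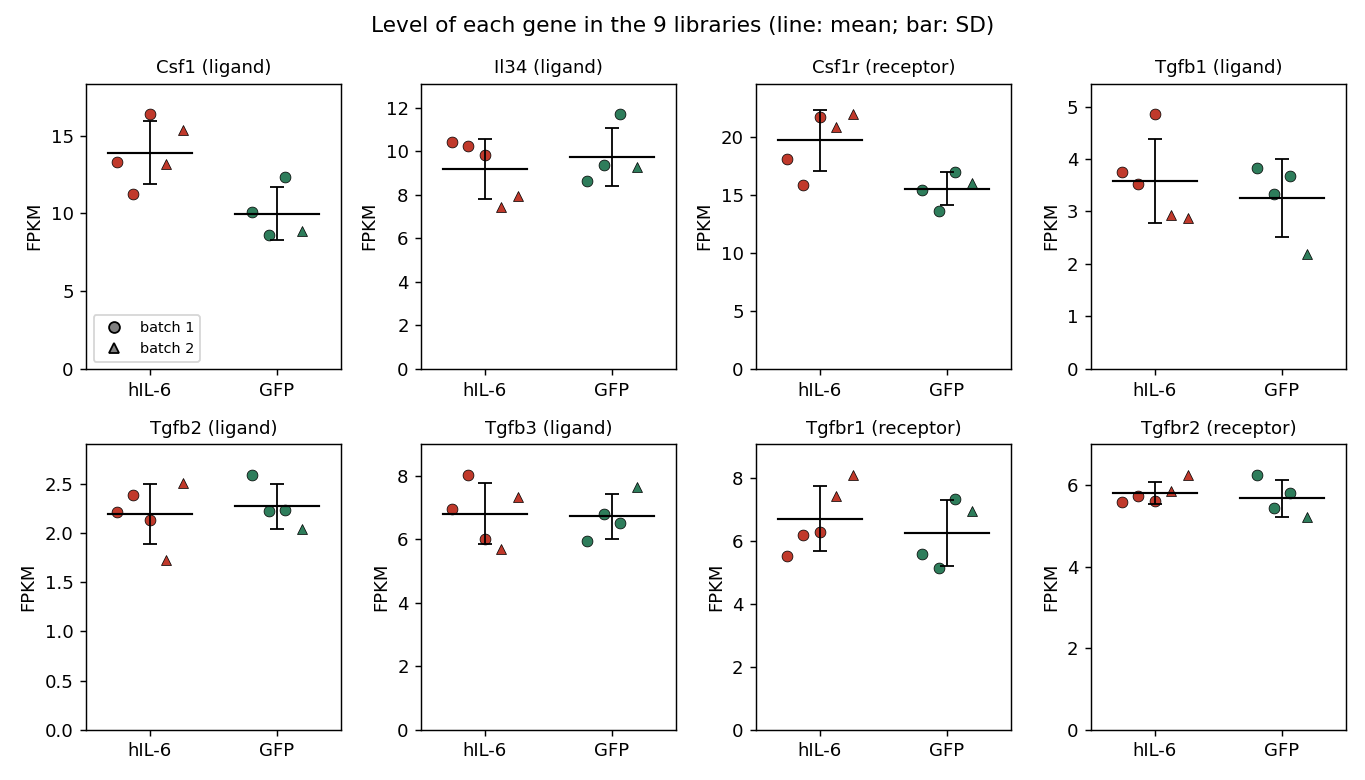
FPKM (vertical axis, from 0) of each of the 8 genes in the 5 hIL-6 and 4 GFP libraries, with circles for batch 1, triangles for batch 2, lines for group means and bars for the SD. Csf1 and Csf1r sit higher in hIL-6 libraries with some overlap, while Tgfb2, Tgfb3, Tgfbr1 and Tgfbr2 overlap widely.

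Comparing hIL-6 and GFP libraries asks which brainstem genes differed once the cytokine virus had been given to the cortex. Csf1 and its receptor Csf1r averaged higher in hIL-6 libraries, by 1.39- and 1.27-fold on the FPKM scale, and the other ligand Il34 did not. Among the TGF-beta genes Tgfb1 was slightly higher, and Tgfb2, Tgfb3 and both receptors had nearly equal means. By limma, 0 of the 8 genes passed an adjusted p of 0.05, and across all 13958 tested genes 0 passed (0% called). At an unadjusted p under 0.05 there were 2 of the 8, Csf1 and Csf1r, both higher, where 543 of 13958 genes (3.89%) had such a p, 2.48% being higher and 1.41% lower. A log2 fold change above 0 was seen in 6 of the 8, against 48.9% of all tested genes, and their median was 0.041, against -0.0026 over all genes tested. In 0 of the 8 were the hIL-6 and GFP libraries apart without overlap, where 0.759% of genes were (0.53% above and 0.229% below). In batch 1 alone 0 of the 8 had an unadjusted p under 0.05 (2.85% of genes), and 0 had every hIL-6 library above or below every GFP library (3.35% and 2.84% of genes). In batch 2 both hIL-6 libraries were above the GFP library for 5 of the 8 (32.3% of genes) and below it for Il34 and Tgfb3 (35.8% of genes). The treatment by batch interaction had an unadjusted p under 0.05 for 0 of the 8 (2.13% of genes) and an adjusted one for 0 of the 8 (0.0143% of genes).

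Csf1, the ligand, lies on chr3:107741048-107760469 (GRCm38, minus strand). It had 13.3, 11.2, 16.4, 13.2 and 15.4 FPKM in hIL-6 libraries 1 to 5, against 10.1, 8.64, 12.4 and 8.86 FPKM in GFP libraries 1 to 4. Of the hIL-6 libraries 4 of 5 were above every GFP library, and the ranges overlapped through hIL-6 library 2 and GFP library 3. The means were 13.9 ± 2.02 FPKM in hIL-6 and 9.98 ± 1.70 FPKM in GFP libraries (SD, n = 5 and 4), a log2 fold change of 0.46 ± 0.13 (SE) with batch as a term, on the log2(FPKM + 0.5) scale. Its 95% interval ran from 0.17 to 0.76. limma gave an unadjusted p of 0.00574 and an adjusted p of 0.999 over all genes, and permuting groups within batches gave an exact two-sided p of 0.05, where the smallest that the 60 arrangements allow is 0.0167. Within batch 1 the log2 difference was 0.38 (95% interval -0.0017 to 0.76, limma adjusted p = 1.00), and in batch 2 it was 0.66, a value without a test since that batch holds 1 GFP library.

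Csf1r, the receptor, lies on chromosome 18, where it overlaps Hmgxb3 on the opposite strand; whether counting used strand is not stated. It had 18.1, 15.9, 21.7, 20.9 and 21.99 FPKM in hIL-6 libraries 1 to 5, against 15.5, 13.7, 17.0 and 16.1 FPKM in GFP libraries 1 to 4. Again 4 of 5 hIL-6 libraries were above every GFP library, and hIL-6 library 2 fell inside the GFP range. The means were 19.7 ± 2.64 FPKM in hIL-6 and 15.6 ± 1.41 FPKM in GFP libraries (SD, n = 5 and 4). Its log2 fold change was 0.30 ± 0.097 (SE), with a 95% interval of 0.086 to 0.52. limma gave an unadjusted p of 0.0111 and an adjusted p of 0.999, and the exact permutation p was 0.05. The log2 difference was 0.26 within batch 1 (95% interval -0.041 to 0.56) and 0.40 within batch 2. Csf1 and Csf1r moved together among libraries of a group: hIL-6 library 2 and GFP library 2 were the lowest of their groups for both genes, and GFP library 3 was the highest of its group for both. The summed microglia markers were above every GFP library in all 5 hIL-6 libraries (at least 332 FPKM in hIL-6 and at most 322 FPKM in GFP libraries). Of single tested genes 0.53% were so placed, and the part of these markers in the Csf1r values was not tested.

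Library 3 of each group, highest in meningeal markers, was also high in the markers of border macrophages, which carry Csf1r too. All 8 border macrophage markers were above 0 in all libraries, and they summed to 4.75 to 10.6 FPKM in hIL-6 and 5.02 to 9.90 FPKM in GFP libraries. Without both of these libraries the log2 fold change was 0.29 ± 0.082 for Csf1r and 0.49 ± 0.11 for Csf1 (SE). Left out singly, they moved the values in opposite directions. Without hIL-6 library 3 alone the log2 fold changes were 0.24 for Csf1r and 0.39 for Csf1. Without GFP library 3 alone they were 0.36 for Csf1r and 0.56 for Csf1. Without GFP library 1 they were 0.31 for Csf1r and 0.47 for Csf1. Oligodendrocyte markers summed to 9854 to 13196 FPKM in hIL-6 and 9434 to 11166 FPKM in GFP libraries and were also highest in library 3 of each group. All 7 of these markers had log2 fold changes above 0, with a median of 0.13, and 1 of 7 had an unadjusted p under 0.05 (3.89% of all genes). The part of border macrophages, meninges and oligodendrocytes in the Csf1 and Csf1r values was not tested.

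Il34, the neuronal ligand of the same receptor, lies on chr8:110741829-110805924 (minus strand). It had 10.4, 10.3, 9.83, 7.44 and 7.95 FPKM in hIL-6 libraries 1 to 5, against 8.62, 9.36, 11.7 and 9.28 FPKM in GFP libraries 1 to 4. Both batch 2 libraries of the hIL-6 group were below every GFP library, while those of batch 1 lay inside the GFP range. The log2 fold change was -0.046 ± 0.097 (SE), with a 95% interval of -0.26 to 0.17 (limma adjusted p = 0.999, exact permutation p = 0.683). It was 0.048 within batch 1 and -0.26 within batch 2, and the treatment by batch interaction did not pass (limma adjusted p = 1.00).

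Tgfb1, the TGF-beta ligand that microglia themselves make, lies on chr7:25687002-25705077 (plus strand). It had 3.75, 3.52, 4.85, 2.94 and 2.87 FPKM in hIL-6 libraries 1 to 5, against 3.83, 3.32, 3.68 and 2.18 FPKM in GFP libraries 1 to 4. Only hIL-6 library 3 was above every GFP library, and the 3 batch 2 libraries were the lowest of all. The log2 fold change was 0.20 ± 0.11 (SE), with a 95% interval of -0.036 to 0.43 (limma adjusted p = 0.999, exact permutation p = 0.1). It was 0.13 within batch 1 and 0.34 within batch 2, and 0.13 without hIL-6 library 3 or without GFP library 4. Batch was the larger difference for this gene: Tgfb1 fell by 0.48 ± 0.11 (SE, log2) in batch 2 relative to batch 1 (limma adjusted p = 0.0158). It was the 1 of 8 genes called for batch, where 22.5% of tested genes were. Il34, Tgfb1 and Tgfbr1 had an unadjusted p under 0.05 for batch, 3 of 8 against 37.6% of tested genes.

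Tgfb2 (chr1:186622792-186705989, minus strand), a ligand known from neurons and astrocytes, was the lowest of the 8 genes, at 1.73 to 2.52 FPKM in hIL-6 and 2.05 to 2.59 FPKM in GFP libraries. Tgfb3 (chr12:86056745-86079041, minus strand, overlapping Ttll5 on the opposite strand), another ligand for the same receptors, was the highest of its family, at 5.69 to 8.03 FPKM in hIL-6 and 5.95 to 7.66 FPKM in GFP libraries. The ranges overlapped almost wholly for Tgfb3. For Tgfb2 hIL-6 library 4 was below every GFP library and GFP library 1 above every hIL-6 library, while the other 7 lay in the shared range. Their log2 fold changes were -0.029 ± 0.11 and 0.0077 ± 0.11 (SE), with 95% intervals of -0.27 to 0.22 for Tgfb2 and -0.25 to 0.26 for Tgfb3. The sign of both depended on which library was left out. Differences of any size inside these intervals remain possible with these libraries.

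Both receptors had 95% intervals that spanned 0. Tgfbr1 (chr4:47353222-47414931, plus strand), the kinase that phosphorylates SMAD2 and SMAD3, was at 5.52 to 8.09 FPKM in hIL-6 and 5.14 to 7.34 FPKM in GFP libraries, with a log2 fold change of 0.051 ± 0.10 (95% interval -0.18 to 0.28). It was higher in batch 2, by 0.29 ± 0.11 (SE, log2), which did not pass (limma adjusted p = 0.0791). Tgfbr2 (chr9:116084293-116175360, minus strand), which binds the ligand first, was the steadiest gene of the set, at 5.58 to 6.25 FPKM in hIL-6 and 5.22 to 6.25 FPKM in GFP libraries. Its log2 fold change was 0.031 ± 0.076 (95% interval -0.14 to 0.20).

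**Figure D2:**
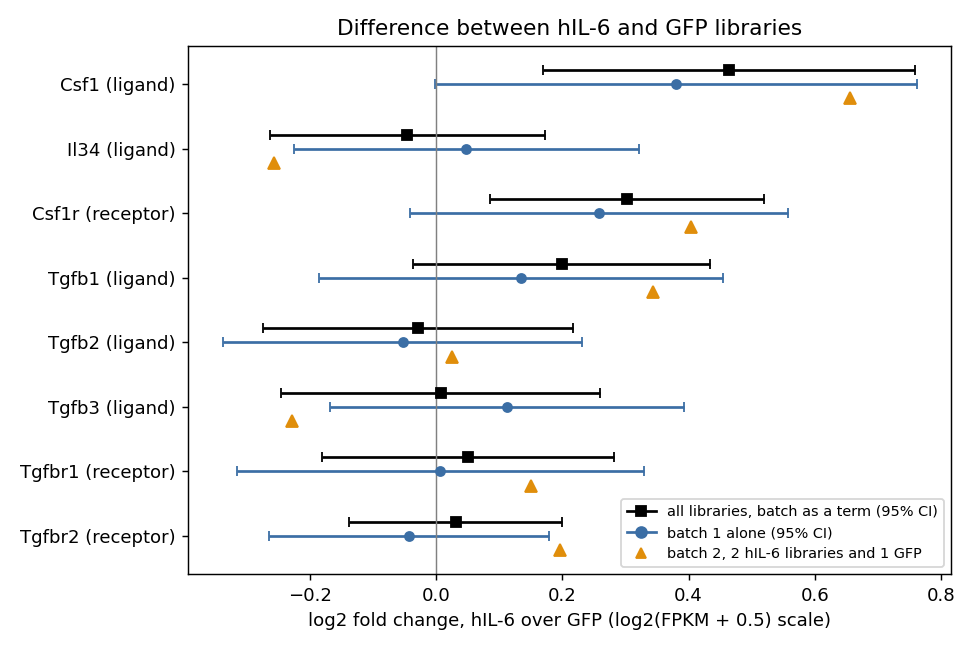
Log2 fold change of hIL-6 over GFP (horizontal axis) for each gene: squares with 95% intervals from all libraries with batch as a term, circles with 95% intervals from batch 1 alone, triangles for the difference in batch 2. The interval over all libraries lies above 0 for Csf1 (0.17 to 0.76) and Csf1r (0.086 to 0.52) and spans 0 for the other 6 genes.

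Set side by side, the ligands and receptors had overlapping ranges of fold change. The 5 ligands had log2 fold changes of -0.046 to 0.46 with a median of 0.0077, and the 3 receptors 0.031 to 0.30 with a median of 0.051. By system, the 3 genes of the CSF1R system had a median of 0.30 and the 5 TGF-beta genes one of 0.031. These medians describe a set picked by name and carry no test.

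Csf1 and Il34 were also set against each other as the ligand pool of CSF1R. The ratio of Csf1 to Il34 was 1.28, 1.09, 1.67, 1.77 and 1.94 in hIL-6 libraries 1 to 5, against 1.17, 0.923, 1.06 and 0.955 in GFP libraries 1 to 4. Only hIL-6 library 2 fell inside the GFP range. Csf1 made up 60.1 ± 5.74% of the 2 ligands' summed FPKM in hIL-6 and 50.5 ± 2.66% in GFP libraries (SD, n = 5 and 4). The log2 ratio differed by 0.53 with batch as a term, by 0.34 within batch 1 (which is also the value without GFP library 4) and by 0.96 within batch 2, where Il34 was low in the hIL-6 libraries. The summed ligands relative to Csf1r were at 0.987 to 1.35 in hIL-6 and 1.13 to 1.41 in GFP libraries, which overlapped. Csf1 alone stood at 0.631 to 0.754 of the Csf1r level in hIL-6 and at 0.551 to 0.726 of it in GFP libraries. Il34 alone stood at 0.356 to 0.647 of the Csf1r level in hIL-6 and at 0.558 to 0.688 of it in GFP libraries. The log2 ratio of Il34 to Csf1r differed by -0.36 with batch as a term, -0.21 within batch 1 and -0.69 within batch 2.

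In the TGF-beta family each ligand's share differed between groups by less than its SD. Tgfb3 gave 54.1 ± 4.65% of the summed FPKM of the 3 ligands in hIL-6 and 55.0 ± 6.92% in GFP libraries, Tgfb1 gave 28.5 ± 5.56% in hIL-6 and 26.4 ± 5.65% in GFP libraries, and Tgfb2 gave 17.4 ± 1.34% in hIL-6 and 18.6 ± 1.65% in GFP libraries (SD, n = 5 and 4). The 3 ligands together were 1.56 to 2.34 times the mean of the 2 receptors in hIL-6 and 1.89 to 2.33 times it in GFP libraries. The 2 hIL-6 libraries of batch 2 were the lowest of all in this ratio, and the batch-adjusted log2 difference of 0.014 joined values of opposite sign, 0.12 within batch 1 (also the value without GFP library 4) and -0.23 within batch 2. Without GFP library 3 it was -0.052.

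**Figure D3:**
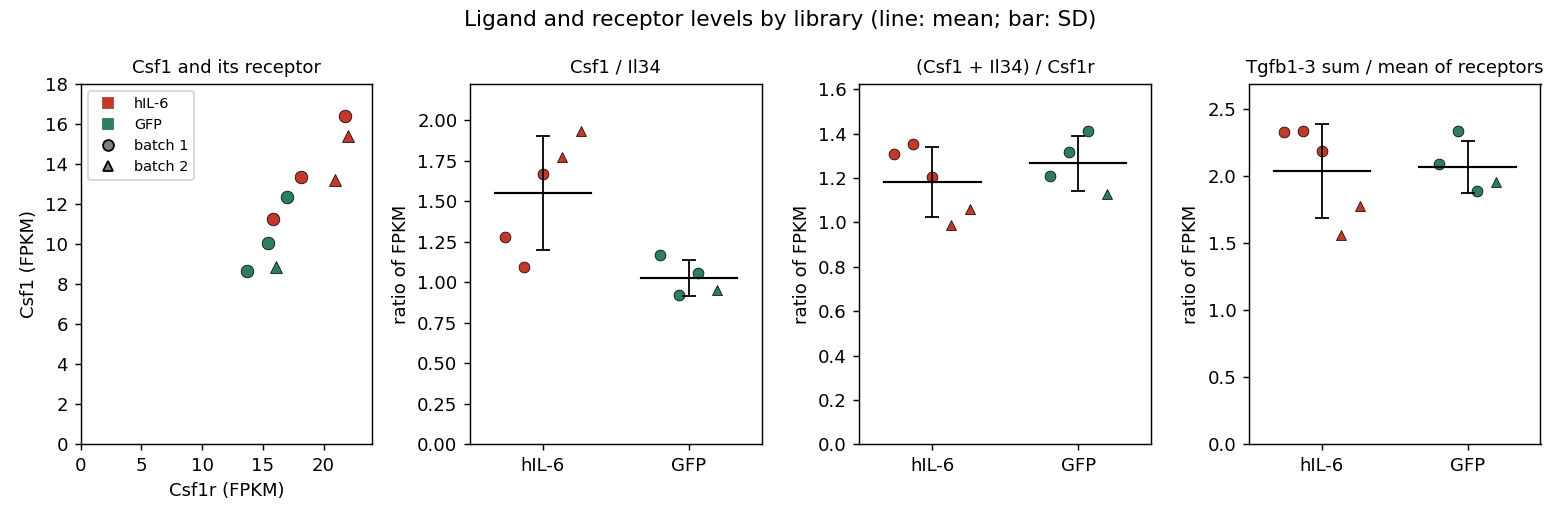
Left, Csf1 against Csf1r in FPKM for each library; the other panels give ratios of FPKM by group, with circles for batch 1, triangles for batch 2, lines for means and bars for the SD. Csf1 to Il34 is 1.09 to 1.94 in hIL-6 and 0.923 to 1.17 in GFP libraries, while both ligand to receptor ratios overlap between groups.

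Csf1r was also set against the other microglia genes. The 18 markers all had log2 fold changes above 0, with a median of 0.42 and an unadjusted p under 0.05 for 15 of them (3.89% of all genes), and 0 passed adjustment over all genes by limma. With library weights, an alternative that lets noisier libraries count less, 2 of the 18 were called, where 9 of 13958 genes were. Csf1r relative to the mean log2 level of these markers gave a ratio of 1.32 to 1.47 in hIL-6 and 1.26 to 1.59 in GFP libraries, a batch-adjusted log2 difference of -0.067. Without GFP library 2, which stood lowest in this ratio, the difference was -0.13, and without GFP library 1 it was -0.038. Csf1r itself had a log2 fold change of 0.30. The part of the microglia markers in the Csf1r and Csf1 values was not tested.

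The genes listed with CSF1R signalling, not all of which act downstream of the receptor, were mostly low and mixed. Of 16 listed signalling genes 13 were tested, 8 were above 0, the median log2 fold change was 0.14, and 0 passed over all genes. Ptpn6, which encodes the phosphatase SHP-1 of blood-lineage cells, was at 2.57 ± 1.16 FPKM in hIL-6 and 1.71 ± 0.35 FPKM in GFP libraries (SD, n = 5 and 4) and was the 1 of the list with an unadjusted p under 0.05. Its GFP range was 1.34 to 2.05 FPKM, and hIL-6 library 2 stood highest at 4.62 FPKM. Irf8, a transcription factor of microglia, was at 1.58 ± 0.21 FPKM in hIL-6 and 1.30 ± 0.41 FPKM in GFP libraries, and the kinase gene Lyn at 2.51 ± 0.32 FPKM in hIL-6 and 2.07 ± 0.26 FPKM in GFP libraries. Grb2 and Src, adaptor and kinase of many cell types, were the highest at 69.5 and 22.1 FPKM in hIL-6 and 71.2 and 22.6 FPKM in GFP libraries. Tyrobp, an adaptor of microglia, reached 4.69 FPKM in hIL-6 library 4, 16.3 FPKM in hIL-6 library 5 and 2.38 FPKM in GFP library 3. It was listed at 0 in the other 6 of 9, so its own fold change is not given. Tyrobp still counts among the 13 tested, among the 8 above 0 and in the median of 0.14. Without hIL-6 library 1 the median of this list was -0.014, without hIL-6 library 2 it was 0.23, and without GFP library 4 it was 0.048. Over the 2 other IL-34 receptors the median was 0.031, with Ptprz1, a phosphatase of astrocytes and precursor cells, at 9.30 ± 2.00 FPKM in hIL-6 and 8.93 ± 2.30 FPKM in GFP libraries and Sdc1, a syndecan, at 0.743 ± 0.287 FPKM in hIL-6 and 0.739 ± 0.304 FPKM in GFP libraries. Of the receptors for related growth factors, Csf3r was at 1.65 ± 0.30 FPKM in hIL-6 and 1.70 ± 0.43 FPKM in GFP libraries, and Csf2ra at 1.00 ± 0.589 FPKM in hIL-6 and 0.867 ± 0.174 FPKM in GFP libraries.

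For genes that store and release latent TGF-beta the median log2 fold change was -0.026 over 16 of 20 tested, with 6 above 0 and 0 called. Itgb5, an integrin subunit, had the smallest p of the list (limma adjusted p = 0.999). It was at 18.1, 14.0, 15.7, 14.9 and 13.2 FPKM in hIL-6 libraries 1 to 5, against 13.3, 13.6, 12.6 and 11.97 FPKM in GFP libraries 1 to 4, so that 4 of 5 hIL-6 libraries were above every GFP library. Furin, the protease that cuts the TGF-beta precursor, was at 9.07 ± 1.38 FPKM in hIL-6 and 8.49 ± 0.84 FPKM in GFP libraries. Itgb3, another integrin subunit, was at 0.845 ± 0.099 FPKM in hIL-6 and 1.06 ± 0.087 FPKM in GFP libraries. Itgb1 and Itgav, the highest of the list by mean over all 9 libraries, were at 28.4 and 14.9 FPKM in hIL-6 and 28.8 and 14.5 FPKM in GFP libraries. Without GFP library 3 the median of the list was 0.025.

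SMAD genes and their inhibitors had medians near 0, and 0 of each list was called or had an unadjusted p under 0.05. Among the 7 SMAD mediators the median log2 fold change was -0.056 and 3 were above 0. Without GFP library 2 this median was -0.14, with 6 of 7 below 0. In that setting 2 of the 7 had an unadjusted p under 0.05, where 1330 of 13959 genes had one. Without GFP library 1 the median was -4.0e-05. Smad2 was at 11.0 ± 1.55 FPKM in hIL-6 and 11.9 ± 2.42 FPKM in GFP libraries (log2 fold change -0.15), and Crebbp, a coactivator, at 2.29 ± 0.45 FPKM in hIL-6 and 2.42 ± 0.36 FPKM in GFP libraries (log2 fold change -0.12). Sptbn1 and Zfyve9, a spectrin and an anchor that bind SMADs, were the highest, at 102 and 40.2 FPKM in hIL-6 and 103 and 38.7 FPKM in GFP libraries. The 13 inhibitors had a median of -0.0019 with 5 above 0, and the median was -0.044 to 0.046 on leaving out 1 library in turn. Tgif1, a repressor, was at 1.08 ± 0.15 FPKM in hIL-6 and 0.902 ± 0.119 FPKM in GFP libraries, Smurf1, a ubiquitin ligase, at 10.6 ± 0.49 FPKM in hIL-6 and 11.1 ± 0.55 FPKM in GFP libraries, and Ski at 15.6 ± 0.80 FPKM in hIL-6 and 15.02 ± 0.558 FPKM in GFP libraries. Ppm1a, a phosphatase that acts on SMADs, and Pmepa1, a TGF-beta-induced inhibitor, were both at 18.8 FPKM in hIL-6 libraries, against 18.5 FPKM for Ppm1a and 19.6 FPKM for Pmepa1 in GFP libraries. The related receptors had a median of 0.015 over 9 of 10 tested, with 5 above 0, and the median was -0.069 to 0.035 on leaving out 1 library in turn. Acvrl1, an endothelial receptor, was at 7.22 ± 0.80 FPKM in hIL-6 and 6.31 ± 1.22 FPKM in GFP libraries, and Acvr1b at 18.8 ± 0.94 FPKM in hIL-6 and 20.2 ± 1.11 FPKM in GFP libraries. Bmpr1b, a receptor for bone morphogenetic proteins, was at 5.07 ± 1.00 FPKM in hIL-6 and 4.41 ± 0.834 FPKM in GFP libraries, and Bmpr2, its partner, at 17.2 ± 4.11 FPKM in hIL-6 and 17.2 ± 5.27 FPKM in GFP libraries.

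Target genes of TGF-beta were taken as general targets and as microglia genes. Of 20 listed symbols of general targets, which include older names of the same genes, 18 were found and 14 were tested. Smad7, Skil and Pmepa1 were among the inhibitors too, so these lists share genes. The median log2 fold change of the 14 targets was 0.0053, with 8 above 0 and 0 with an unadjusted p under 0.05. This balance rested on single libraries: without hIL-6 library 3 only 1 of 14 was above 0 (median -0.076), and without hIL-6 library 1 there were 12 of 14 (median 0.090). Without GFP library 2 there were 4 of 14 (median -0.042) and without GFP library 3 there were 11 of 14 (median 0.082). Among them Junb was at 5.73 ± 1.37 FPKM in hIL-6 and 5.20 ± 1.54 FPKM in GFP libraries, Skil, a feedback repressor, at 7.45 ± 0.99 FPKM in hIL-6 and 7.85 ± 0.95 FPKM in GFP libraries, and Id2 at 55.6 ± 6.67 FPKM in hIL-6 and 58.7 ± 4.84 FPKM in GFP libraries. Microglia genes that depend on TGF-beta, Csf1r among them, had a median of 0.24, with 15 of 16 above 0, 8 with an unadjusted p under 0.05 (3.89% of all genes) and 0 called. With library weights 2 of the 16 were called, where 9 of 13958 genes were. The 3 with the smallest p, Cx3cr1, Olfml3 and Fcrls, had log2 fold changes of 0.36, 0.61 and 0.56 (limma adjusted p = 0.180, 0.259 and 0.290). Rhob, a small GTPase, and Gas6, a ligand of Mertk, were the highest of the list, at 167 and 90.2 FPKM in hIL-6 and 160 and 89.4 FPKM in GFP libraries. Bulk tissue does not show which cells gave these levels, so the genes of this list need not report on microglia alone. Sall1, the transcription factor of microglia identity that other brain cells also express at low level, was at 7.36 ± 0.47 FPKM in hIL-6 and 7.32 ± 0.88 FPKM in GFP libraries. Several of these 16 genes are microglia markers too, so the 2 lists are not independent, and the difference between them was not tested.

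**Figure D4:**
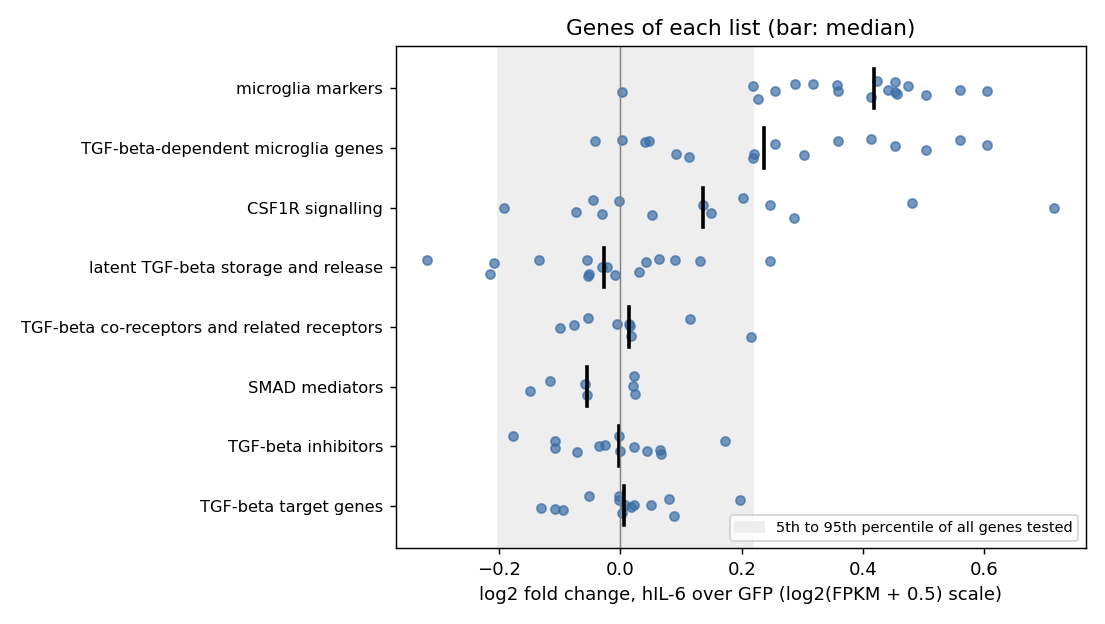
Log2 fold change of hIL-6 over GFP (horizontal axis) of each tested gene (points) by list, with bars for medians and shading for the 5th to 95th percentile of all genes tested (-0.20 to 0.22). Medians are 0.42 for microglia markers and 0.24 for TGF-beta-dependent microglia genes, and between -0.056 and 0.015 for the 5 lists of TGF-beta storage, receptors, SMADs, inhibitors and general targets.

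The genes whose levels were most like each of the 8 over the 9 libraries were found by Pearson's r of log2 levels. They were the highest among tested genes, predicted genes left out, and are given as a description; the libraries share groups, batches and tissue content. For Csf1r they were Golm1 (r = 0.97), Irf9 (r = 0.96) and Ly86 (r = 0.96), and for Csf1 they were Slc44a1, C1qb and Endou (r = 0.95, 0.95 and 0.94). Ly86 and C1qb are microglia genes, and Slc44a1 encodes a choline transporter. For Il34 the most alike was Phf7 (r = 0.96), for Tgfb1 Slc12a9 (r = 0.98), for Tgfb2 Copz2 (r = 0.94), for Tgfb3 Uxs1 (r = 0.91), for Tgfbr1 Edem1 (r = 0.98) and for Tgfbr2 Ezh2 (r = 0.92). Within the set the most alike pair was Csf1r and Csf1, with r = 0.92 over the 9 libraries and 0.97 after group and batch were taken out. No gene of the set was among the 3 most alike to another by r over the libraries as they stand.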

How the data were processed

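The deposited table holds FPKM values made by the authors, with a column for each library. The submitters' processing notes name kallisto, DESeq2 and the build mm10; versions, roles and the scaling of libraries are not stated. Reads shared between transcripts are apportioned by estimate in kallisto. Gene positions are from GENCODE M21 (GRCm38), which matched 16429 of 17187 symbols. Relative depth came from low values of genes with 1 transcript, of which 96.7% to 97.8% were whole multiples of a step (tolerance 0.05). Step and length offset were those giving the highest share. Where a larger step, and so a lower depth, did nearly as well, it was taken instead. Counting errors cover fragments only. No count test was run.

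Values were transformed to log2(FPKM + 0.5), which understates changes of low genes. A mean of 0.5 FPKM or more was required. limma 3.58.1 in R 4.3.3 was used with batch in the model, a trended prior variance and 6 residual degrees of freedom. Tests were two-sided, and p-values were adjusted across every tested gene (Benjamini-Hochberg, threshold 0.05). The procedure was tested on simulated data with planted differences larger than those of the 8 genes, so differences of their size were not covered. Single genes also had an exact permutation test within batches. From each pathway list the 3 genes with the smallest p and the 2 highest were named; Tyrobp and Sall1 were named after their values were seen. The 8 genes and the lists were chosen with earlier results of these data known. Alternatives were another pseudocount, filter, scaling or batch treatment, library weights, a replicate block, and libraries left out.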

Additional observations from a re-analysis of the deposited data

Results flagged for a closer look

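Over 32 checks of the 8 genes and 8 ratios in each group for 1 library far from the others, 1 stood out, where chance flags about 1 in 20. The log2 ratio of Csf1r to the mean of the microglia markers was 0.33 in GFP library 2, against 0.61 to 0.67 in the other GFP libraries. Without that library the batch-adjusted difference in this ratio between hIL-6 and GFP was -0.13, against -0.067 with it. Csf1r itself was lowest in that library, at 13.7 FPKM. No gene of the set had a treatment by batch interaction past the threshold (limma adjusted p of 1.00 for each of the 8), where 0.0143% of tested genes did.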

How the results depend on the processing

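Csf1r, Csf1 and Tgfb1 kept a log2 fold change above 0 under all 22 alternatives, at 0.24 to 0.38, 0.38 to 0.56 and 0.13 to 0.26. None of the 8 genes was called under any. The 22 are not all separate checks, since another filter or none leaves the fold changes of the 8 genes as they were. Batch 1 alone gives the same fold changes as leaving out GFP library 4. The replicate block gives the same ones as leaving out hIL-6 library 5, which has no GFP library of its number. The lowest adjusted p over the alternatives was 0.207 for Csf1r and 0.160 for Csf1, both with library weights. The number of genes called over all was 9 with library weights (2 of the microglia markers and 2 of the TGF-beta-dependent genes among them, lists that share genes) and 0 to 2 on leaving out 1 library, the 2 without hIL-6 library 2. The sign changed for genes near 0: in batch 1 alone Il34 was at 0.048 and Tgfbr2 at -0.043, and Tgfb3 was at -0.016 with the replicate block and -0.099 with library weights. Leaving out 1 library in turn gave -0.12 to 0.048 for Il34, -0.088 to 0.021 for Tgfb2, -0.071 to 0.11 for Tgfb3, -0.0047 to 0.15 for Tgfbr1 and -0.043 to 0.073 for Tgfbr2. Of 3 pairs of libraries left out after seeing the data, those highest in meningeal markers gave Il34 0.013, those highest in pituitary markers Tgfb2 0.077, and those lowest in serotonergic markers Tgfb3 -0.00080 and a CSF1R signalling median of 0.0093. One library left out moved that median over -0.014 to 0.23, that of latent TGF-beta genes over -0.064 to 0.025, that of general TGF-beta targets over -0.076 to 0.090 and that of SMAD mediators over -0.14 to -4.0e-05. The cause was not tested. The replicate block gave log2 fold changes of 0.29 for Csf1r and 0.42 for Csf1 (limma adjusted p = 0.641 and 0.330) and called 0 genes, 654 having an unadjusted p under 0.05. Deviations of same-numbered libraries from their group means correlated at r = 0.13 to 0.46, each number lying in 1 batch; within batch 1 they did so at 0.019, -0.11 and 0.27, and hIL-6 library 1 was closest to GFP library 2, so that beyond batch the numbers were not taken to pair libraries. Depth limits low genes such as Tgfb2: a 2000-nucleotide transcript at its level has 130 to 176 fragments (7.53% to 8.78% counting error).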
